A study of Homo sapiens with 9 samples.

Results

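FRZB, which encodes a secreted Wnt antagonist, was examined with 9 other genes of the Wnt pathway in C28/I2 cells, a human chondrocyte line that was immortalised. The 10 genes are FRZB, SFRP1, DKK1 and DKK3 of the antagonists, the ligand genes WNT5A and WNT5B, the receptor gene FZD7, the co-receptor genes LRP5 and LRP6, and AXIN2 of the β-catenin destruction complex. They are 10 of the 60671 genes listed in each deposited table, and all 10 passed the filter on low counts that left 19812 genes for testing. FRZB was selected on its measured counts, for the difference between CA2 shRNA and Scrambled libraries, and it is not recorded whether values of the other 9 genes entered the choice. Their differences between CA2 shRNA libraries and either control are therefore given as a description, with no p-value.

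The series holds 9 libraries of total RNA, 3 each of cells with a short hairpin RNA against CA2 (CA2 shRNA), of a control group called Scrambled, and of a group called Control. CA2 encodes carbonic anhydrase 2, a cytosolic enzyme that interconverts carbon dioxide and bicarbonate, and the study asks what the enzyme does in human articular chondrocytes. All libraries come from the same cell line and no drug or time is labelled. The labels describe neither the hairpin, the scrambled construct nor whether Control cells were transduced, and nothing says that the 3 libraries of a group are separate cultures, so p-values measure the spread between these libraries, which may be technical.

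Wnt proteins are secreted ligands that bind Frizzled receptors. With the co-receptors LRP5 and LRP6 they inactivate a destruction complex built on axin and APC, and β-catenin then accumulates and acts in the nucleus with TCF and LEF factors. With other co-receptors they act instead on planar cell polarity, small GTPases and calcium. Secreted Frizzled-related proteins such as FRZB and SFRP1 resemble the ligand-binding part of Frizzled and bind Wnts outside the cell, while DKK1 binds LRP5 and LRP6. FRZB was first isolated from articular cartilage, and mice that lack it are more prone to cartilage damage after joint injury.

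Totals ranged from 16994368 to 34261244 counts per library. Libraries Control 3 and Scrambled 2 stood apart, with 4.06% and 4.08% of counts from mitochondrial genes against 5.55% to 6.86% in the other 7 libraries. CA2 itself was low everywhere: it had 28, 15 and 30 counts in CA2 shRNA libraries, 41, 53 and 61 in Scrambled and 55, 41 and 66 in Control. Its log2 change was -0.77 (SE 0.23, adjusted p = 0.0276) against Scrambled and -0.86 (SE 0.23, adjusted p = 0.0159) against Control in edgeR's quasi-likelihood test with Benjamini-Hochberg adjustment, so some CA2 transcript remained. The first call was lost in 5 of 18 alternatives (highest adjusted p 0.109) and the second in 3 of 18 (0.0759), and among them were those without CA2 shRNA 2 or CA2 shRNA 3 in both comparisons, Scrambled 2 or Scrambled 3 in the first and Control 1 in the second. Of the chondrocyte markers SOX9 averaged 26.5 RPKM in CA2 shRNA, 23.2 in Scrambled and 23 in Control libraries, but 9 of 11 markers stayed under 1 RPKM in every library, among them COL2A1 at 0.244, 0.271 and 0.284 RPKM, ACAN at 0.0684, 0.0737 and 0.0958 RPKM, and COL9A1 at 0. Marker sums of other cell types were low. The 3 endothelial markers summed to 0.444 to 0.544 RPKM in CA2 shRNA, 0.384 to 0.47 in Scrambled and 0.354 to 0.388 in Control libraries. In the same order CDH5 averaged 0.206, 0.137 and 0.12 RPKM, PECAM1 0.0812, 0.0522 and 0.0457, and VWF 0.204, 0.227 and 0.202. The 3 immune markers summed to 0.613 to 1.02 RPKM in CA2 shRNA, 1.15 to 1.32 in Scrambled and 0.683 to 1.08 in Control libraries. Epithelial sums reached 0.42, neural sums 1.71 and muscle and adipocyte sums 0.0562 RPKM in any library, with group ranges that overlapped, and the part of other cells in the results was not tested.

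Across all genes tested, 16.9% were called in CA2 shRNA against Scrambled at an adjusted p under 0.05, with 8.02% higher and 8.88% lower. These are 3348 genes, and 2059 were called without Scrambled 3. In CA2 shRNA against Control 14.7% were called, 6.41% higher and 8.26% lower. Of the 10 Wnt genes, 2 were called higher (FRZB and SFRP1), 2 lower (DKK1 and WNT5A) and 6 were not called, in each of these comparisons, which share the CA2 shRNA libraries. All 3 CA2 shRNA libraries lay above all 3 Scrambled libraries for 3 of the 10 genes and below them for 5, where this held for 15.2% and 17.2% of all genes. Against Control the numbers were 3 and 4 of the 10 genes, beside 15.8% and 17.2% of all genes. In either direction that is 8 and 7 of the 10 genes, beside 32.3% and 33% of all genes. The median log2 change of the 10 genes was -0.08 against Scrambled and -0.11 against Control, and that of all genes -0.03 and -0.01. Since results of these data were known when the genes were chosen, nothing is read from these shares. The same holds for the calls of the 10 genes and for their loss or gain in alternatives below, which are description only.

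FRZB (ENSG00000162998, chr2:182833275-182866637 of GRCh38, minus strand) had the largest difference of the 10. It stood at 6.49, 7.36 and 6.11 CPM in CA2 shRNA libraries, 2.53, 3.14 and 2.23 in Scrambled libraries and 2.6, 4.05 and 3.14 in Control libraries, where CPM is the count scaled to a common library total with TMM factors. Every CA2 shRNA library was above every control library, and the Scrambled and Control ranges overlapped. These levels rest on 130, 122 and 167 reads in CA2 shRNA, 57, 85 and 66 in Scrambled and 62, 83 and 107 in Control libraries. The means of 6.65 ± 0.644, 2.63 ± 0.461 and 3.26 ± 0.73 CPM (SD, n = 3 each, in the same order) gave a ratio of 2.51 against Scrambled and 2.04 against Control. On the log2 scale the differences were 1.33 (SE 0.18) and 1.03 (SE 0.18). Over 18 alternatives the log2 change ranged from 1.21 to 1.5 against Scrambled and from 0.9 to 1.18 against Control, which describes the values that chose the gene. Without Control 3 and Scrambled 2 they were 1.5 and 1.03.

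SFRP1 (ENSG00000104332, chr8:41261962-41309473, minus strand), a second secreted Frizzled-related protein, was also higher in CA2 shRNA libraries, from a far larger number of reads. Its CPM was 139, 150 and 146 in CA2 shRNA, 99.5, 111 and 104 in Scrambled and 98.4, 110 and 111 in Control libraries. The lowest CA2 shRNA library exceeded the highest control library of either kind. The log2 change of SFRP1 was 0.46 (SE 0.063) against Scrambled and 0.44 (SE 0.063) against Control.

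DKK1 (ENSG00000107984, chr10:52314281-52318042, plus strand), which blocks LRP5 and LRP6 and is itself a β-catenin target, was lower. It had 168, 173 and 173 CPM in CA2 shRNA, 191, 200 and 196 in Scrambled and 204, 218 and 219 CPM in Control libraries. No 2 of the 3 groups overlapped. The difference was -0.19 in log2 (SE 0.052) against Scrambled and -0.32 (SE 0.052) against Control. Its call against Scrambled was lost in 5 of 18 alternatives, those that left out CA2 shRNA 1, CA2 shRNA 3, Scrambled 2, Scrambled 3 or both Control 3 and Scrambled 2. An antisense gene, PRKG1-AS1, covers 10.2% of its exon bases and reached at most 155 counts in a library, while DKK1 averaged 4808.

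DKK3 (ENSG00000050165, chr11:11956207-12009769, minus strand), a divergent member of the Dickkopf family, was not called. It had 86.2, 94.7 and 86.2 CPM in CA2 shRNA, 96.9, 96.3 and 96.3 in Scrambled and 92.9, 100 and 104 CPM in Control libraries. The CA2 shRNA libraries lay below all Scrambled libraries and overlapped Control. DKK3 differed by -0.12 in log2 (SE 0.061) against Scrambled and -0.16 (SE 0.061) against Control, and it was called against Control in 3 of 18 alternatives (with only the 2 groups compared, without Scrambled 1 and without CA2 shRNA 2). As annotated in the files, 47.5% of its exon bases overlap USP47 on the opposite strand, and the strand setting of the counting is not given in the sources used here, so reads of the 2 genes may not be told apart.

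Both ligand genes among the 10 act mainly outside the β-catenin route. WNT5A (ENSG00000114251, chr3:55465715-55490539, minus strand), a ligand of ROR2 that is active in growth plate and diseased cartilage, had 244, 220 and 238 CPM in CA2 shRNA, 259, 277 and 266 in Scrambled and 256, 281 and 284 CPM in Control libraries. The CA2 shRNA libraries lay below both control groups, which overlapped each other. The log2 change of WNT5A was -0.19 (SE 0.058) against Scrambled and -0.23 (SE 0.058) against Control. The call against Scrambled was lost in 9 of 18 alternatives, among them those without Scrambled 2, Scrambled 3 or any 1 of the CA2 shRNA libraries, and with the DESeq2 test. The call against Control was lost in 4 of 18, those without Control 2, Control 3, CA2 shRNA 3 or both Control 3 and Scrambled 2.

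WNT5B (ENSG00000111186, chr12:1529891-1647212, plus strand), the closest relative of WNT5A, was at a far lower level and was not called. It had 7.99, 8.69 and 7.82 CPM in CA2 shRNA, 9.33, 10 and 10.3 in Scrambled and 9.37, 9.75 and 10.1 CPM in Control libraries, with the CA2 shRNA libraries below all 6 others. WNT5B had a log2 change of -0.28 (SE 0.1) against Scrambled and -0.26 (SE 0.11) against Control, and the larger SE than for WNT5A goes with its smaller counts.

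The receptor gene and the pair of co-receptor genes were not called in either comparison. FZD7 (ENSG00000155760, chr2:202034587-202038445, plus strand), a Frizzled receptor, had 45.2, 42.4 and 42.5 CPM in CA2 shRNA, 38.6, 36.4 and 38.7 in Scrambled and 37.1, 39.8 and 38.6 CPM in Control libraries. Its CA2 shRNA libraries were above all others, and its log2 change was 0.19 (SE 0.066) and 0.17 (SE 0.066). It was called in 3 of 18 alternatives against Scrambled (DESeq2 size factors, the filter of 1 CPM and the DESeq2 test) and in 2 against Control (the filter of 1 CPM and without Scrambled 2).

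LRP6 (ENSG00000070018, chr12:12116025-12267044, minus strand) had 52.8, 58.7 and 58.9 CPM in CA2 shRNA, 59.5, 67.2 and 69 in Scrambled and 64.9, 64.1 and 65 CPM in Control libraries. The CA2 shRNA libraries were below all others, with a narrow gap to Scrambled 1, and the log2 change was -0.20 (SE 0.069) and -0.19 (SE 0.069). It was called in 4 alternatives against Scrambled and 2 against Control, among them that without Scrambled 1 in both. Its paralog LRP5 (ENSG00000162337, chr11:68312591-68449275, plus strand) had 84.6, 94.2 and 85.1 CPM in CA2 shRNA, 91.3, 83.9 and 87 in Scrambled and 92, 89.5 and 94 CPM in Control libraries. Its groups overlapped, with a log2 change of 0.01 (SE 0.061) and -0.06 (SE 0.061).

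AXIN2 (ENSG00000168646, chr17:65528563-65561648, minus strand), a scaffold of the destruction complex and the most widely used readout of β-catenin signalling, was the lowest of the 10. It had 2.75, 1.87 and 1.61 CPM in CA2 shRNA, 2.13, 2.25 and 2 in Scrambled and 2.06, 1.56 and 2.46 CPM in Control libraries, with overlapping groups. The log2 change of AXIN2 was -0.05 (SE 0.24) against Scrambled and 0.00 (SE 0.24) against Control. Its counts lay between 31 and 84 per library, and its SE was the largest of the 10 in both comparisons. On the same strand 25.2% of its exon bases overlap ENSG00000266076, which reached at most 1 count in a library. The part of this overlap in the level of AXIN2 was not tested.

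**Figure D1:**
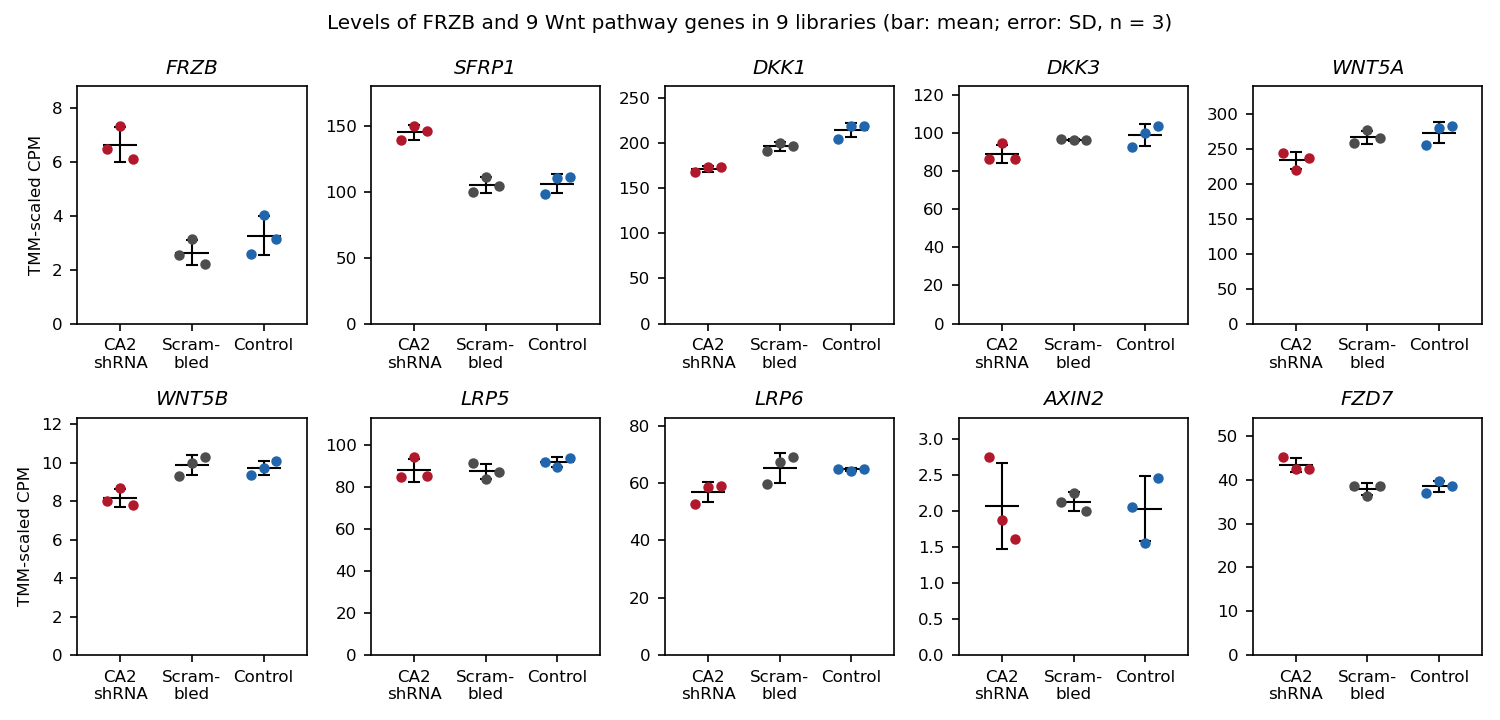
Level of each of the 10 genes in TMM-scaled CPM (y axis, from 0) in the CA2 shRNA, Scrambled and Control libraries, where points are libraries, bars are group means and error bars are SD (n = 3). FRZB and SFRP1 lie above both control groups and DKK1, WNT5A and WNT5B below them, while the points of LRP5 and AXIN2 overlap.

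Scrambled against Control is not independent of the choice of genes, because the Scrambled libraries entered the choice of FRZB. Choosing FRZB for higher values in CA2 shRNA than in Scrambled libraries favours low Scrambled values, and so a negative change here. Whether values of the other genes entered the choice is not recorded. The p-values of the 10 genes in this comparison are therefore description only, and nothing is read from them. In Scrambled against Control edgeR's quasi-likelihood test called 0 of the 10 genes and 0% of all genes at an adjusted p under 0.05. Of all genes 550 (2.78%) had an unadjusted p under 0.05, and the DESeq2 test called 1 gene. FRZB was -0.30 (SE 0.19, unadjusted p = 0.132 in edgeR's test), with overlapping libraries. DKK1 was the 1 gene of the 10 whose groups did not overlap, as was the case for 6.81% of all genes (3.66% higher, 3.14% lower), and it was lower in Scrambled in 3 of 3 libraries, with a log2 change of -0.13 (SE 0.052, unadjusted p = 0.026, adjusted p = 1). It was also the 1 gene of the 10 with an unadjusted p under 0.05.

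**Figure D2:**
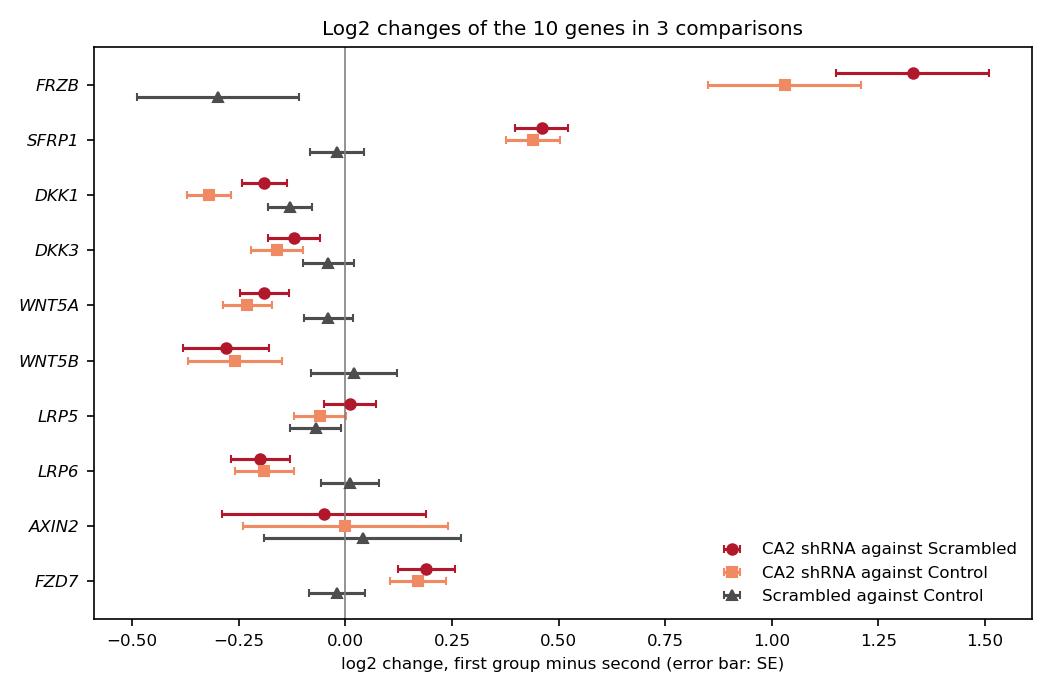
Log2 change of each of the 10 genes (x axis, first group minus second) in the 3 comparisons, CA2 shRNA against each control and the controls against each other, with SE bars. FRZB lies furthest to the right at 1.33 and 1.03, SFRP1 follows at 0.46 and 0.44, and the other 8 genes lie between -0.32 and 0.19.

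Per kilobase of exon, the 10 genes spanned more than 2 orders of magnitude. In the CA2 shRNA libraries the order of RPKM was DKK1 (76.8 ± 1.64), WNT5A (31.5 ± 2.17), SFRP1 (30.5 ± 0.939), LRP5 (14.2 ± 0.608), FZD7 (11.2 ± 0.519), DKK3 (7.42 ± 0.27), LRP6 (5.46 ± 0.321), FRZB (2.51 ± 0.195), WNT5B (1.92 ± 0.071) and AXIN2 (0.396 ± 0.115; SD, n = 3 each). The ranges of WNT5A and SFRP1 overlapped, and no other neighbours did. The DKK3 value rests on an annotated exon length of 11958 bases, 47.5% of it overlapping USP47, so its place in the order is uncertain. In Scrambled and in Control libraries no neighbours overlapped and the order was the same except that WNT5B stood above FRZB, with 2.34 ± 0.11 and 1 ± 0.176 RPKM in Scrambled and 2.29 ± 0.0723 and 1.23 ± 0.267 RPKM in Control. SFRP1 had 22.2 ± 1.24 RPKM in Scrambled and 22.4 ± 1.34 in Control, below WNT5A at 36.2 ± 1.19 and 36.9 ± 1.84.

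Summed over the 17 listed antagonist genes, RPKM was 160 ± 1.2 in CA2 shRNA, 156 ± 1.48 in Scrambled and 163 ± 4.58 in Control libraries. DKK1 made up 48.1% ± 0.888 of that sum in CA2 shRNA libraries, 56.7% ± 0.829 in Scrambled and 58.6% ± 0.308 in Control. The SFRP1 share was 19.1% ± 0.638, 14.3% ± 0.671 and 13.7% ± 0.444, and that of FRZB 1.57% ± 0.134, 0.643% ± 0.107 and 0.751% ± 0.149 (SD, n = 3 each, in the same order). FRZB thus had the largest relative difference of the 10 genes and stayed a small part of the antagonist transcripts in all 3 groups. Of the ligand transcripts, whose sum was 61.9 ± 2.66 RPKM in CA2 shRNA, 69.1 ± 0.478 in Scrambled and 69.7 ± 2.21 in Control libraries, WNT5A was the largest part at 50.8%, 52.4% and 52.9%.

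The rest of the pathway was taken from 10 lists by role that hold 133 genes with the 10, of which 112 were tested. The other 21, among them SFRP2, SFRP4, DKK2, DKK4, WIF1 and LGR5, reached at most 14 counts and 0.188 RPKM in any library. Against Scrambled, 14 of the 112 genes were called higher (12.5%, all genes 8.02%) and 19 lower (17%, all genes 8.88%), with a median log2 change of -0.03 as over all genes. Without CA2 shRNA 1 or CA2 shRNA 3 the lower calls numbered 11. Apart from the 10 genes, 12 of the other 102 tested were higher and 17 lower against Scrambled, and 13 and 21 against Control. For all 112, against Control 15 were higher (13.4%, all genes 6.41%) and 23 lower (20.5%, all genes 8.26%), with a median of -0.05 (all genes -0.01), and without Control 1 or Control 2 the higher calls numbered 8. In Scrambled against Control edgeR's test called 0 of the 112, 3 had an unadjusted p under 0.05 and the DESeq2 test called 0.

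Among the 10 tested antagonist genes 3 were higher (30%) and 1 lower (10%) in both comparisons with CA2 shRNA, and these include FRZB, SFRP1 and DKK1. Over all genes the shares were 8.02% and 8.88% against Scrambled and 6.41% and 8.26% against Control. With FRZB, SFRP1, DKK1 and DKK3 left out, 1 of 6 was higher and 0 lower in each, so the count rests mostly on the chosen genes. The third to rise was TPBG, whose product WAIF1 inhibits β-catenin signalling at the membrane in zebrafish and mammalian cells. TPBG averaged 99.5 ± 7.16 CPM in CA2 shRNA, 75.8 ± 1.84 in Scrambled and 74.5 ± 1.7 in Control libraries (SD, n = 3 each). Its log2 change was 0.39 (SE 0.062, adjusted p = 0.000211, higher in 3 of 3 libraries) against Scrambled and 0.42 (adjusted p = 0.000114) against Control in edgeR's test. The DKK1 partner genes KREMEN1 and KREMEN2, the other antagonist genes above 1 RPKM besides DKK3, were not called.

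Of 11 tested ligand genes 1 was called higher and 2 lower in each comparison (9.09% and 18.2%). Over all genes the shares were 8.02% and 8.88% against Scrambled and 6.41% and 8.26% against Control. With WNT5A and WNT5B left out, 1 of 9 was higher and 1 lower in each comparison. The called ligand genes other than WNT5A had low levels. WNT6, a secreted Wnt ligand, averaged 2.36 CPM in CA2 shRNA, 3.68 in Scrambled and 3.92 in Control libraries. Relative to Scrambled it fell by 0.64 (log2, SE 0.19, edgeR adjusted p = 0.0245) and relative to Control by 0.74 (adjusted p = 0.0112). Those calls were lost without CA2 shRNA 1 or CA2 shRNA 3 in both comparisons, without Scrambled 1 in the first (highest adjusted p 0.104) and without Control 2 or Control 3 in the second. WNT10B, a ligand of the β-catenin route that favours bone over fat formation, was higher against Scrambled (log2 change 0.61, SE 0.2, edgeR adjusted p = 0.045), which was lost in 10 of 18 alternatives, among them those that left out CA2 shRNA 1, CA2 shRNA 2, Scrambled 1, Scrambled 2 or Control 2 (highest adjusted p 0.135), and was not called against Control (0.54, adjusted p = 0.0869). WNT2B was higher against Control (0.47, SE 0.14, edgeR adjusted p = 0.0243), which was lost with no filter and without any 1 Control library or CA2 shRNA 3 (highest adjusted p 0.0935), and was 0.18 against Scrambled (adjusted p = 0.42). Part of the WNT2B exons, 21.5%, overlaps ST7L on the opposite strand.

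The genes for ligand release and for R-spondin signalling gave no call in either CA2 shRNA comparison. WLS, which carries Wnts to the cell surface, was 0.10 against Scrambled and 0.11 against Control on the log2 scale, and PORCN, which acylates Wnts, -0.13 and -0.21. Of these 3 release genes 0 had an unadjusted p under 0.05 against Scrambled and 1 against Control. Of 5 tested genes of the R-spondin axis, whose products set the number of Frizzled receptors on the cell, 2 had an unadjusted p under 0.05 in each comparison. Over all genes 29% had such a p against Scrambled and 26.4% against Control, so nothing particular to either list is read from these counts. The DESeq2 test called 0 of either list. ZNRF3, an E3 ligase that removes Frizzled, was 0.00 and 0.03, and the ligand gene RSPO4 -0.18 and -0.15.

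Frizzled genes went both ways. FZD6, a receptor of the polarity route, averaged 160 ± 9.57 CPM in CA2 shRNA, 121 ± 11.7 in Scrambled and 132 ± 8.58 in Control libraries. It rose by 0.40 (SE 0.072, edgeR adjusted p = 0.000816) and by 0.27 (adjusted p = 0.017), and the second call was lost without Control 1 (0.0811) or Control 2 (0.0597). FZD2 averaged 105 ± 7.5 CPM in CA2 shRNA, 136 ± 7.14 in Scrambled and 140 ± 3.04 in Control libraries. It fell by 0.37 (SE 0.061, edgeR adjusted p = 0.000314) and by 0.41 (adjusted p = 0.000119), with the CA2 shRNA libraries below all others. In RPKM, FZD6 made up 40.2% of the summed Frizzled transcripts in CA2 shRNA libraries, 31.7% in Scrambled and 33% in Control, and FZD2 made up 28.5%, 38.6% and 37.6%. Of the 7 co-receptor genes 1 was called in each comparison (14.3%), near the share of all genes called in either direction (16.9% against Scrambled and 14.7% against Control). It was PTK7, a pseudokinase of the polarity route, which rose by 0.33 (edgeR adjusted p = 0.00115) and 0.30 (adjusted p = 0.00231).

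Cytoplasmic genes went both ways, with 3 of 24 tested called higher and 4 lower against Scrambled (12.5% and 16.7%, all genes 8.02% and 8.88%). Against Control 4 were higher and 5 lower (16.7% and 20.8%, all genes 6.41% and 8.26%). BTRC and FBXW11 encode the paralogous F-box proteins that mark phosphorylated β-catenin for destruction. BTRC averaged 91.9 ± 4.4 CPM in CA2 shRNA, 64.1 ± 3.68 in Scrambled and 63.4 ± 2.87 in Control libraries, and rose by 0.52 (SE 0.064, edgeR adjusted p = 1.78e-05) and 0.53 (adjusted p = 1.34e-05). FBXW11 averaged 67.6 ± 3.9 CPM in CA2 shRNA, 105 ± 5.08 in Scrambled and 107 ± 5.22 in Control libraries, and fell by 0.63 (SE 0.064, edgeR adjusted p = 1.51e-06) and 0.66 (adjusted p = 9.56e-07). For both genes all 3 CA2 shRNA libraries stood apart from all 6 others. DVL2, which encodes a Dishevelled protein that relays the signal from Frizzled, averaged 98 ± 6.79 CPM in CA2 shRNA, 168 ± 13.4 in Scrambled and 165 ± 8.27 in Control libraries. Its fall of 0.78 (SE 0.068, edgeR adjusted p = 3.1e-07) and 0.75 (adjusted p = 4.54e-07) was the largest among the called genes of the cytoplasmic list, which holds 24 tested genes, in both comparisons. Its paralog DVL3, named after its values were seen, is the more abundant of the pair and was higher, at 439 ± 21.4 CPM in CA2 shRNA, 382 ± 9.95 in Scrambled and 389 ± 7 in Control libraries (log2 change 0.20, edgeR adjusted p = 0.0139, and 0.17, adjusted p = 0.0323). The first DVL3 call was lost without CA2 shRNA 2 (0.07), and the second without CA2 shRNA 2, Scrambled 3 or any 1 Control library (highest adjusted p 0.16). DVL1, of the same family and also named after its values were seen, was not called in either comparison. It averaged 123 ± 7.33 CPM in CA2 shRNA, 119 ± 7.92 in Scrambled and 120 ± 7.82 in Control libraries. DACT1, a Dishevelled antagonist, was lower at 3.28 CPM in CA2 shRNA, 4.5 in Scrambled and 5.03 in Control libraries (log2 change -0.46, edgeR adjusted p = 0.035, and -0.62, adjusted p = 0.00616), and the first call was lost in 8 of 18 alternatives, among them those that left out CA2 shRNA 1, CA2 shRNA 3, Scrambled 1 or Scrambled 3 (highest adjusted p 0.146). CTNNB1, the β-catenin gene, added here after its values were seen, was 491 ± 4.85 CPM in CA2 shRNA, 462 ± 15.9 in Scrambled and 475 ± 16.5 in Control libraries and was not called (edgeR adjusted p = 0.273 and 0.632).

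Of 17 tested β-catenin target genes 3 were called higher and 3 lower in both comparisons (17.6% each, beside 8.02% higher and 8.88% lower of all genes against Scrambled and 6.41% and 8.26% against Control). EPHB2, an ephrin receptor, averaged 57.6 ± 1.22 CPM in CA2 shRNA, 92.7 ± 4.56 in Scrambled and 94.7 ± 3.93 in Control libraries, and fell by 0.69 (SE 0.06, edgeR adjusted p = 3.1e-07) and 0.72 (adjusted p = 1.73e-07). Its paralog EPHB3, named after its values were seen, went the other way at 36.6 ± 1.87 CPM in CA2 shRNA, 29.8 ± 1.44 in Scrambled and 31 ± 1.56 in Control libraries (log2 change 0.30, edgeR adjusted p = 0.00897, and 0.24, adjusted p = 0.0382). The first EPHB3 call was lost without CA2 shRNA 2 (0.0512) and the second in 6 of 18 alternatives, among them those that left out CA2 shRNA 1, CA2 shRNA 2, Scrambled 3, Control 1 or Control 2 (highest adjusted p 0.22). TNFRSF19 fell by 0.44 (SE 0.13, edgeR adjusted p = 0.0285) and 0.52 (adjusted p = 0.0118), and the first call was lost in 6 of 18 alternatives, among them those without Scrambled 2 or any 1 CA2 shRNA library (highest adjusted p 0.144), and the second without CA2 shRNA 1 (0.062). DKK1 was the other lower target. The cell cycle gene CCND1 rose by 0.34 (SE 0.055, edgeR adjusted p = 0.000278) and 0.30 (adjusted p = 0.00101), and FOSL1, of the AP-1 family, by 0.40 (SE 0.064, adjusted p = 0.000264) and 0.33 (adjusted p = 0.00153). AXIN2, ZNRF3 and MYC, in the same list, were not called. CCND1, FOSL1 and EPHB2 are known targets of other pathways as well.

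Of 14 nuclear factors 2 were called higher and 1 lower in both comparisons (14.3% and 7.14%). Among all genes 8.02% were higher and 8.88% lower against Scrambled, and 6.41% and 8.26% against Control. The lower share of the list was thus under that of all genes. The β-catenin coactivator gene BCL9L rose by 0.29 (SE 0.059, edgeR adjusted p = 0.00241) and 0.29 (adjusted p = 0.00243), and the corepressor gene TLE3 fell by 0.25 (SE 0.055, adjusted p = 0.00367) and 0.29 (adjusted p = 0.00129), a call lost against Scrambled without CA2 shRNA 3 (0.0539). PYGO2, a partner of BCL9 proteins, had log2 changes of 0.17 and 0.18 (edgeR adjusted p = 0.039 and 0.0344) that were lost in 11 and 7 of 18 alternatives, those without any 1 library other than Control 1, Scrambled 1 and CA2 shRNA 3 among the 11 (highest adjusted p 0.132), and those without any 1 Control library, Scrambled 3, CA2 shRNA 1 or CA2 shRNA 2 among the 7 (0.147). Exons of BCL9L overlap CXCR5 on the opposite strand (37.4%, with at most 1 CXCR5 count in a library), and 9.14% of those of PYGO2 overlap SHC1 on the same strand, a gene with up to 7621 counts in a library against a PYGO2 mean of 2351, so the PYGO2 values are uncertain.

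**Figure D3:**
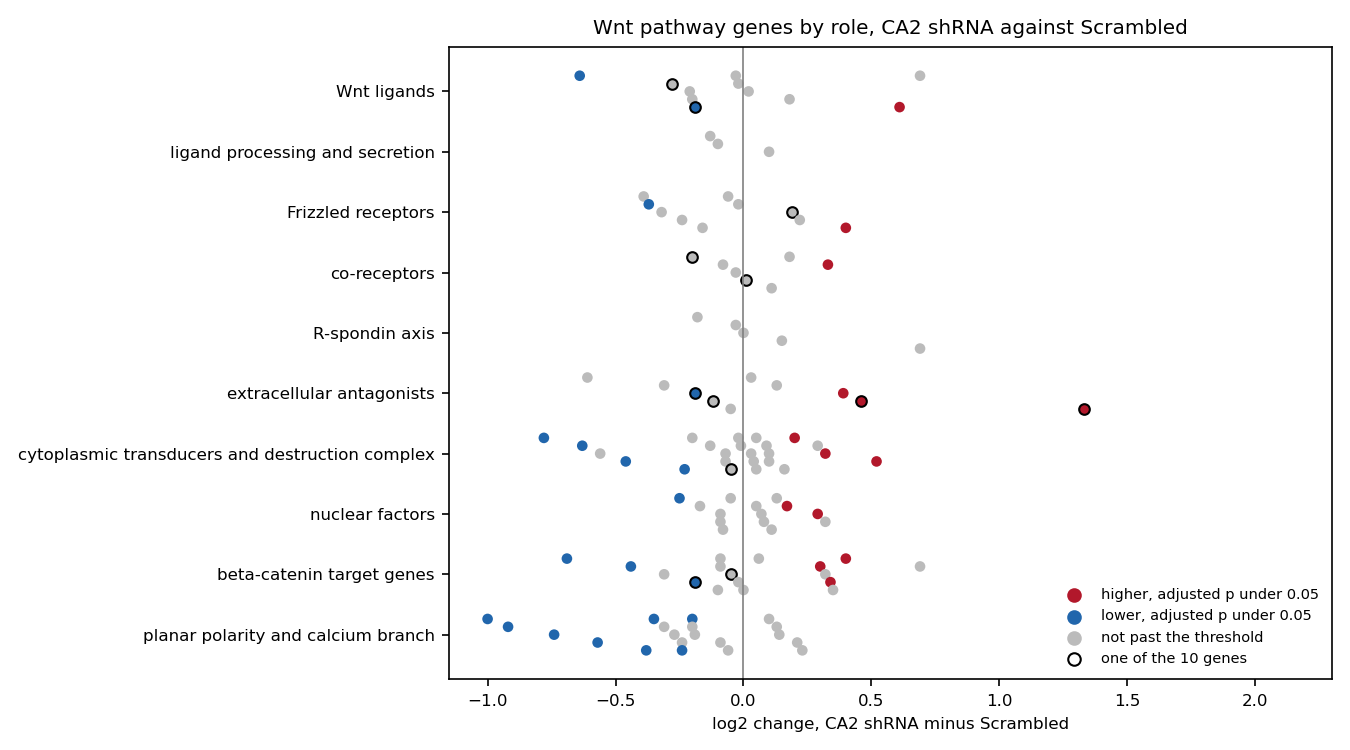
Log2 change of the 112 tested Wnt pathway genes in CA2 shRNA against Scrambled (x axis) by role, with 1 point per gene and list, and the vertical spread within a row carrying no value. Red points are called higher and blue points lower, and the 10 genes have a black outline. FRZB at 1.33 stands furthest to the right, and the planar polarity and calcium row holds 8 blue points and no red one.

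The list with the largest share of lower calls was the planar polarity and calcium branch. The lists were drawn up with earlier results of these data known, and this list is singled out by its own share. Its counts are therefore a description. Against Scrambled 8 of its 20 tested genes fell (40%), 0 were called higher by edgeR's test and 12 were not called, beside 8.88% of all genes lower. At an unadjusted p under 0.05 the list held 3 higher and 10 lower genes (all genes 29% in either direction), and the DESeq2 test called 2 higher and 7 lower. Without Control 1 edgeR's test called 2 of these genes higher, and without Scrambled 2 it called 3. Against Control 11 fell (55%, all genes 8.26%), 0 were called higher, 1 higher and 11 lower genes had an unadjusted p under 0.05 (all genes 26.4%), and the DESeq2 test called 0 higher and 10 lower. The median log2 change of the list was -0.22 against Scrambled and -0.21 against Control.

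NFATC2, which encodes a transcription factor switched on by calcium and calcineurin, had 5.74, 4.16 and 5.96 CPM in CA2 shRNA, 10.7, 11.2 and 10.2 in Scrambled and 9.16, 10.4 and 11.1 CPM in Control libraries. Its CA2 shRNA libraries were below all 6 others, with a log2 change of -1 (SE 0.13, edgeR adjusted p = 3.61e-05) and -0.93 (adjusted p = 7.89e-05). PRKCA, the gene of protein kinase C alpha, had 48.4, 51 and 55.1 CPM in CA2 shRNA, 91.6, 100 and 101 in Scrambled and 94, 95.2 and 100 CPM in Control libraries. It fell by 0.92 (SE 0.065, edgeR adjusted p = 2.66e-08) and 0.90 (adjusted p = 3.08e-08), the smallest p-values printed for a Wnt pathway gene. NFATC3 averaged 91.3 ± 2.91 CPM in CA2 shRNA, 152 ± 8.9 in Scrambled and 151 ± 9.82 in Control libraries, a fall of 0.74 (SE 0.062, edgeR adjusted p = 2.03e-07) and 0.73 (adjusted p = 2.23e-07). VANGL2, a core membrane protein of planar polarity, averaged 25.8 ± 0.827 CPM in CA2 shRNA, 38.4 ± 1.33 in Scrambled and 39.3 ± 1.01 in Control libraries. It fell by 0.57 (SE 0.068, edgeR adjusted p = 1.12e-05) and 0.61 (adjusted p = 5.78e-06). All 3 CA2 shRNA libraries of VANGL2, as of PRKCA and NFATC3, lay below all 6 control libraries.

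The other genes of this list called lower in both comparisons were CELSR2, INVS, NFATC1 and CELSR1, with log2 changes of -0.38, -0.35, -0.24 and -0.20 against Scrambled, and they are named after their values were seen. The CELSR1 calls (adjusted p = 0.0401 and 0.0432 in edgeR's test) were lost in 11 and 13 of 18 alternatives, each CA2 shRNA library left out among them (highest adjusted p 0.219 and 0.239). Without CA2 shRNA 1 the NFATC1 call against Scrambled (0.0647) and the INVS call against Control (0.0507) were lost too. PRICKLE1, CAMK2D and VANGL1 passed against Control (log2 changes of -0.57, -0.33 and -0.22) and not against Scrambled (-0.31, -0.20 and -0.09). The VANGL1 call was lost in 9 of 18 alternatives, among them those without any 1 CA2 shRNA or Control library or Scrambled 3 (highest adjusted p 0.245), and the CAMK2D call without CA2 shRNA 3 or Control 1 (0.0957). The difference between the controls was not called for any of these 3 genes (adjusted p = 1 each in edgeR's test). The GTPase genes RHOA and RAC1 and the kinase gene MAPK8, the downstream end of the polarity route, had log2 changes of 0.14, 0.23 and 0.21 against Scrambled and were not called, although 2, 8 and 8 of 18 alternatives called them. Against Control their changes were 0.09, 0.13 and 0.18, also not called, and 0, 0 and 1 of 18 alternatives called them.

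**Figure D4:**
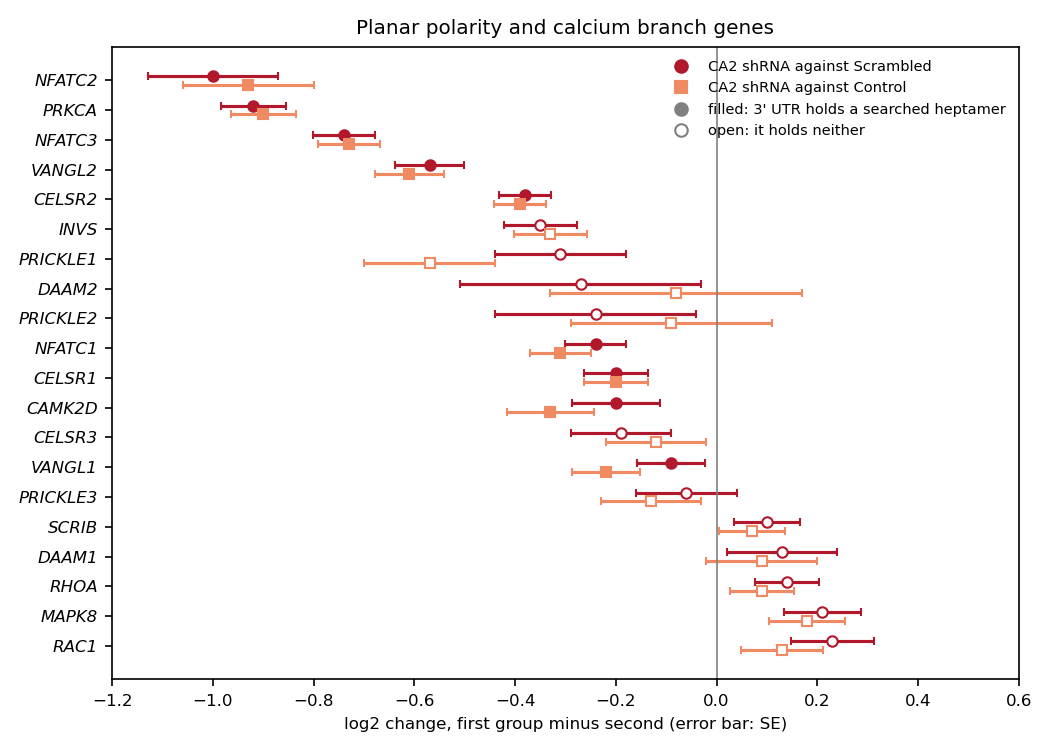
Log2 change (x axis, first group minus second) of the 20 tested planar polarity and calcium genes in CA2 shRNA against each of the 2 controls, with SE bars, ordered by the first. NFATC2 at -1 and PRKCA at -0.92 lead the falls, and filled symbols mark the 9 genes whose 3' UTR holds ACACCAA or CACCAAA.

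An earlier analysis of these data, made after values were seen, had singled out the heptamers ACACCAA and CACCAAA in 3' untranslated regions (UTRs) of genes that fell. They overlap in the octamer ACACCAAA. They were searched here on the transcript strand in the longest 3' UTR of each gene in GENCODE 29 (GRCh38), and since they come from the same libraries the counts are a description that supports nothing. Either heptamer was in 18.7% of 13965 tested protein-coding genes, in 46.6% of those lower against Scrambled and in 8.71% of those higher. Of the Wnt pathway genes 12 of 19 lower genes (63.2%), 2 of 14 higher genes (14.3%) and 15 of 79 that were not called (19%) held one. In the planar polarity and calcium list it was 7 of 8 lower genes and 2 of 12 that were not called. The 3' UTRs differed in length too, with a median of 2373 bases in the lower Wnt pathway genes, 2015 in the higher and 1795 in those not called, and the part of length in these counts was not tested. Of FRZB and the 9 genes chosen with it, DKK3 held a heptamer and FRZB, SFRP1, DKK1, WNT5A and the other 5 held neither.

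The octamer was in 4.24% of the 13965 genes, in 16.7% of those lower against Scrambled, 1.27% of those higher and 2.96% of those not called. It was in 10 of the 112 Wnt pathway genes, namely 7 of the 19 lower (36.8%), 0 of the 14 higher and 3 of the 79 not called (3.8%) against Scrambled. A higher share among lower genes was thus seen over all genes too. The windows of the lower genes are shown, because the lower calls of these genes span 4 roles, in lower case with the match in capitals and 5′ to 3′ on the transcript strand. All lie in the 3' UTR of the named gene, with 8 bases on each side.
DVL2 (chr17:7225355-7225378, minus strand): tgtataaaACACCAAAtaaagcaa
EPHB2 (chr1:22918374-22918397, plus strand): gctgccagACACCAAAggagctga
FBXW11 (chr5:171863084-171863107, minus strand): aaggtttaACACCAAAatgtttta
NFATC1 (chr18:79468670-79468693, plus strand): ccacgttcACACCAAActgttggg
NFATC2 (chr20:51388211-51388234, minus strand): aaaaattgACACCAAAaccctgcc
NFATC3 (chr16:68227681-68227704, plus strand): gaccctccACACCAAAgacaccct
TLE3 (chr15:70047849-70047872, minus strand): acaggttaACACCAAAgtattgta

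Of these 7 genes NFATC1, NFATC2 and NFATC3 belong to the calcium branch, DVL2 and FBXW11 to the cytoplasmic steps, TLE3 to the nuclear factors and EPHB2 to the target genes. PRKCA, VANGL2, CELSR1, CELSR2 and GSK3B, also lower, held a heptamer and not the octamer. A match names letters in this window and is not a binding site or a cause.

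The genes whose profile over the 9 libraries was nearest to that of FRZB were outside the Wnt pathway lists, as were most genes ranked, since the lists hold 133 genes. Nearness was the mean absolute difference of z-scored log2 CPM among 12147 protein-coding genes with a mean of at least 2 CPM, for which the median was 1.03. UBR7 (0.125), GINS2 (0.126), SLC39A14 (0.129), MED20 (0.145) and PON2 (0.148) came first. UBR7 averaged 106 CPM in CA2 shRNA, 81.9 in Scrambled and 85.3 in Control libraries, and GINS2, of the replication helicase, 87.8, 70.2 and 73.6 CPM. All 5 share with FRZB a high in the 3 CA2 shRNA libraries and, among the controls, a highest value in Control 2. They were picked for nearness over these same libraries, so the likeness follows from the choice.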

How the data were processed

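RNA-seq of 9 libraries was analysed from tables the authors deposited, 1 per library. Per the file headers, each holds a whole-number read count, a CPM and an RPKM for 60671 Ensembl genes. Recomputed, the deposited CPM was count over total, and the deposited RPKM was CPM per kilobase of exon. The submitters' processing notes name bcl2fastq, STAR 2.5.1a, Subread and featureCounts 1.4.6-p5 and the build GRCh38. Annotation release, strand setting and treatment of multi-mapped reads: not given in the sources used here.

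Symbols were matched for 60401 genes. Counts were tested with edgeR 4.0.16 in R 4.3.3: filterByExpr left 19812 genes, TMM factors were 0.9767 to 1.012, all 9 libraries entered 1 robust quasi-likelihood fit, and Benjamini-Hochberg adjustment ran over all genes tested (threshold 0.05). The common biological coefficient of variation was 7.94%, on 6 residual degrees of freedom. With 3 libraries a group, exact permutation could reach no p under 0.1 and was not used. CPM printed for genes are TMM-scaled, and RPKM are as deposited. The chi-square per gene between library pairs was 3.51 to 26.8, so no 2 tables agreed within sampling noise. The scripts were tested on simulated counts.

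The 10 genes, the role lists and the 3' UTR letters were chosen with earlier results of these data known. Named were CA2, the 10 genes, up to 4 called genes with the largest change per list and comparison (where none, the 2 with the highest RPKM) and the 5 profiles nearest to FRZB. Alternatives were other size factors, library totals, other filters, DESeq2 1.42.0, a fit of 2 groups, a replicate block, each library left out, and Control 3 and Scrambled 2 left out.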

Additional observations from a re-analysis of the deposited data

How the results depend on the processing

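Over 18 alternatives no result reversed its sign past the threshold. With 1 library left out, genes called numbered 2059 (without Scrambled 3) to 4011 against Scrambled (3348 with all libraries) and 1962 to 3662 against Control (2906). Scrambled against Control gave 0 to 1 call with 1 library left out, 7 with no filter and 1 with the DESeq2 test (0 in edgeR's main fit). Wnt pathway genes called higher numbered 10 to 19 against Scrambled and 8 to 19 against Control, and lower 11 to 20 and 17 to 26. Of the 10 genes, those called lower against Scrambled numbered 0 to 3 with 1 library left out, 1 with DESeq2 size factors, the DESeq2 test or only the 2 groups compared, and 0 without Control 3 and Scrambled 2. Against Control they numbered 1 to 4, 4 with only the 2 groups compared and 1 without Control 3 and Scrambled 2. Polarity and calcium genes called lower numbered 6 to 8 and 8 to 11. Those called higher against Scrambled numbered 0 to 3 with 1 library left out, 1 with DESeq2 size factors or only the 2 groups compared, 2 with no filter, the filter of 1 CPM or the DESeq2 test and 3 without Control 3 and Scrambled 2, and against Control 0 to 1. The cause of these shifts was not tested, and neither was the part of the smaller number of libraries. Counts for the 10 genes and for polarity genes, and the alternatives of genes named after their values were seen, were added after seeing the data.

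Replicate numbers did not pair the libraries: deviations of same-numbered libraries from their group means correlated at -0.19 to 0.1. With the number as a replicate block, 3422 genes were called against Scrambled, 2946 against Control and 0 between the controls. Of the Wnt pathway genes 14 were higher and 19 lower against Scrambled, and 15 and 22 against Control. Against Scrambled 2 of the 10 genes were higher and 3 lower, with LRP6 added, and 2 polarity genes were higher. Low counts limit precision: against Scrambled the SE was 0.24 for AXIN2 and 0.18 for FRZB, and 0.052 for DKK1.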
